A study of Homo sapiens with 2 samples.

Results

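Cholesterol synthesis and its control by sterols were described here through 28 genes, chosen by symbol and all found among the 36601 genes of the deposited tables. They were 19 enzymes from ACAT2 to DHCR7, 5 genes of sterol sensing and transcription control (INSIG1, INSIG2, SREBF1, SREBF2 and SCAP), the sterol carrier STARD4, and the 3 fatty acid desaturases FADS1, FADS2 and SCD. The material was astrocyte progenitors grown from the human embryonic stem cell line H7 after treatment with the cytokine LIF, the growth factor BMP4 and the growth factor FGF1. Day 160 and day 220 of differentiation each gave 1 single-cell library, and the agents and the cell line were the same for both. Each library pooled 3 separate differentiations of this 1 line that the labels do not tell apart, so no value below has a replicate and no test between the days was possible. The protocol text of the day 220 sample repeats the earlier day, and its deposited names carry another prefix, so a difference of culture and a difference of age cannot be told apart.

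Cells make cholesterol from acetyl-CoA: the mevalonate pathway makes isoprene units, these are joined to squalene, squalene is closed to the first sterol, lanosterol, and lanosterol is trimmed to cholesterol. The transcription factor SREBP-2, from SREBF2, switches the enzymes on together when sterols in the endoplasmic reticulum run low, with SCAP as its escort and the INSIG proteins as the sterol-dependent anchors that hold SCAP back. In the brain cholesterol is made locally, and astrocytes are a main source that passes it to neurons in lipoproteins. The 3′ counts used here are UMIs, each standing for 1 captured RNA molecule, and levels are CPM (counts per 10⁶ UMIs) of the summed cells. A molecule is counted once, so levels were not divided by gene length. Whether reads from introns were counted is not given.

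After filtering, day 160 held 9389 cells with 115158004 UMIs (median 10041 UMIs per cell) and day 220 held 518 cells with 25487554 UMIs (median 46079.5). The 28 genes took 313467 of the UMIs at day 160 and 44171 at day 220. Intervals in parentheses are 95% intervals for counting error alone, and cover nothing of the spread between cultures. Of 14 astrocyte markers, 10 had 10 CPM or more at day 160 and 9 at day 220, with GFAP at 551 and 135 CPM and S100B at 172 and 570.0 CPM, while AQP4, of mature astrocytes, had 5.08 and 2.12 CPM. No endothelial or microglial marker reached 10 CPM in either library, and AIF1 and C1QA had no UMI in both. Markers of cycling cells summed to 2040 CPM at day 160 and 766 CPM at day 220, and those of neurons to 2117 and 1234 CPM. Mitochondrially encoded genes took 11.7% and 8.78% of UMIs. The part of these differences, of depth per cell and of the mix of cell types in the whole-library values below was not tested except where cells of 1 class or 1 depth are compared. In values summed over a library, fewer cells of a type and less RNA per cell cannot be told apart.

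The promoter letters of 5 genes are printed because MSMO1 and NSDHL had the 2 lowest ratios of day 220 over day 160, SREBF2 and SCAP the 2 highest, and HMGCS1 the highest day 160 level of the mevalonate genes. Each run is the 250 bases before a RefSeq start (GRCh38.p14), 5′ to 3′ on the strand of the gene. Capitals mark CCAAT or its reverse complement ATTGG, the letters of the box bound by the factor NF-Y, which often acts beside SREBP, and, in SREBF2, also TCACNCCAC, the letters of the sterol regulatory element. GENCODE release 29 places the outermost start of the gene inside the run for HMGCS1, MSMO1, NSDHL and SREBF2 and upstream of it for SCAP. For NSDHL 2 of its 5 CCAAT matches overlap in 1 capital run.
HMGCS1 promoter (chr5:43313413-43313662, - strand): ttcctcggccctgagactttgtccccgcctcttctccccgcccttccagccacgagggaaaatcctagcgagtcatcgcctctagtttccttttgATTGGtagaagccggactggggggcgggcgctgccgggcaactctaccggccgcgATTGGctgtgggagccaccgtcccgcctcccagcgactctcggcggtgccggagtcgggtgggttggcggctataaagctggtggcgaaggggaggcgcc
MSMO1 promoter (chr4:165327419-165327668, + strand): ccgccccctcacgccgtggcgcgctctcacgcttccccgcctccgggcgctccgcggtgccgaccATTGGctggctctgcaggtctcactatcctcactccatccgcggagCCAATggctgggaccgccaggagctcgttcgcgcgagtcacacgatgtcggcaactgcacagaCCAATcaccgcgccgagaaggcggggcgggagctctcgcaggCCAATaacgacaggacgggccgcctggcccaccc
NSDHL promoter (chrX:152830813-152831062, + strand): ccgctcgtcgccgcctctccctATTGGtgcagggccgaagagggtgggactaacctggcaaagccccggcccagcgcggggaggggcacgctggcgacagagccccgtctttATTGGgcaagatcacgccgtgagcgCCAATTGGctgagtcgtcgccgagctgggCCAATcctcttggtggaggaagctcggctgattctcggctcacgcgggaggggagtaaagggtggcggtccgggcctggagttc
SREBF2 promoter (chr22:41832855-41833104, + strand): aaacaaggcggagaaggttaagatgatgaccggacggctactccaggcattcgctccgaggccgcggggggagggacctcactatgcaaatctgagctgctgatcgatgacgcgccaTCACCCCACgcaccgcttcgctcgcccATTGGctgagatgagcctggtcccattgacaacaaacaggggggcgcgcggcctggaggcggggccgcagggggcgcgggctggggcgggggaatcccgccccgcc
SCAP promoter (chr3:47475942-47476191, - strand): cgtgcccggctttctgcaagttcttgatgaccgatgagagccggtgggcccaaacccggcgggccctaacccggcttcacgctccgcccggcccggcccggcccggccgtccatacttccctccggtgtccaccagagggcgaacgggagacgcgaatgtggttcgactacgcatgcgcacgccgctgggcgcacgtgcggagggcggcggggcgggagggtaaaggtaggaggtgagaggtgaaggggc
RefSeq promoters were at hand for 25 of the 28 genes, without ACAT2, FDFT1 and SQLE. Searched on both strands, CCAAT was in 17 of these 25 and in 13 of 16 enzymes, against 37.0% of the promoters of all 27305 genes in the table and 42.9% of the 8096 of them that were counted in the comparison of days. At least 2 matches were in 11 of the 25, among them MSMO1 with 4 and NSDHL and MVK with 5, against 15.9% of the counted genes. CCAAT was not in the windows of CYP51A1, FADS1, FADS2, INSIG2, LBR, PMVK, SCAP and SREBF1. TCACNCCAC was in the window of SREBF2 and of no other of the 25, against 1.09% of all genes in the table. A match is a description of letters, and its absence says only that these letters are not in that window.

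Most of the pathway had lower levels at day 220, while SREBF2 and SCAP, which regulate it, had higher ones. Summed over the 19 enzymes, the level was 2216 CPM on day 160 (2207 to 2225) and 1234 CPM on day 220 (1221 to 1248), or 1.80-fold lower (1.77 to 1.82). Of the 19 enzymes 18 had a log2 ratio below 0, the exception being LSS, and their median was -0.72, where the ratio is log2 of (CPM + 1) at day 220 over day 160. Over the 10167 genes that reached 10 CPM in either library the median was 0.14, so these genes lay below a library whose ratios leaned upwards. A ratio below 0 was still common: DHCR7, the enzyme nearest to 0 at -0.022, stood above 42.2% of those genes. At the 1.5-fold mark 13 enzymes were lower and none higher, and among all 28 genes 15 were lower and 2, SREBF2 and SCAP, higher, where 14.4% of all counted genes were 1.5-fold lower and 33.4% higher. At the 2-fold mark 5 of the 28 were lower, HMGCS1, FDFT1, MSMO1, NSDHL and EBP, and 1, SREBF2, was higher, against 5.09% and 23.0% of all counted genes.

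The ratio between these libraries moved with intron length: it had a median of -0.37 over 2448 genes with under 10000 intron bases and of 0.34 over 3077 genes with 30000 to 100000, the class of FDFT1, LSS, NSDHL, SREBF2, SCAP and FADS2, whose own median was 0.013. The 6 members of the shortest class had a median of -0.74 and the 16 members with 10000 to 30000 bases a median of -0.54, against -0.14 for all 2359 genes of that length. Ratios were therefore also centred on a running median of genes nearest in intron length. The median of the 28 members was then -0.37, with 9 of them 1.5-fold lower and 1, SREBF2, higher, against 16.2% and 19.5% of all genes. Of the 5 genes 2-fold lower as measured, FDFT1, MSMO1 and NSDHL remained so, against 7.42% of all genes, and HMGCS1 at -0.86 and EBP at -0.80 did not.

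**Figure D1:**
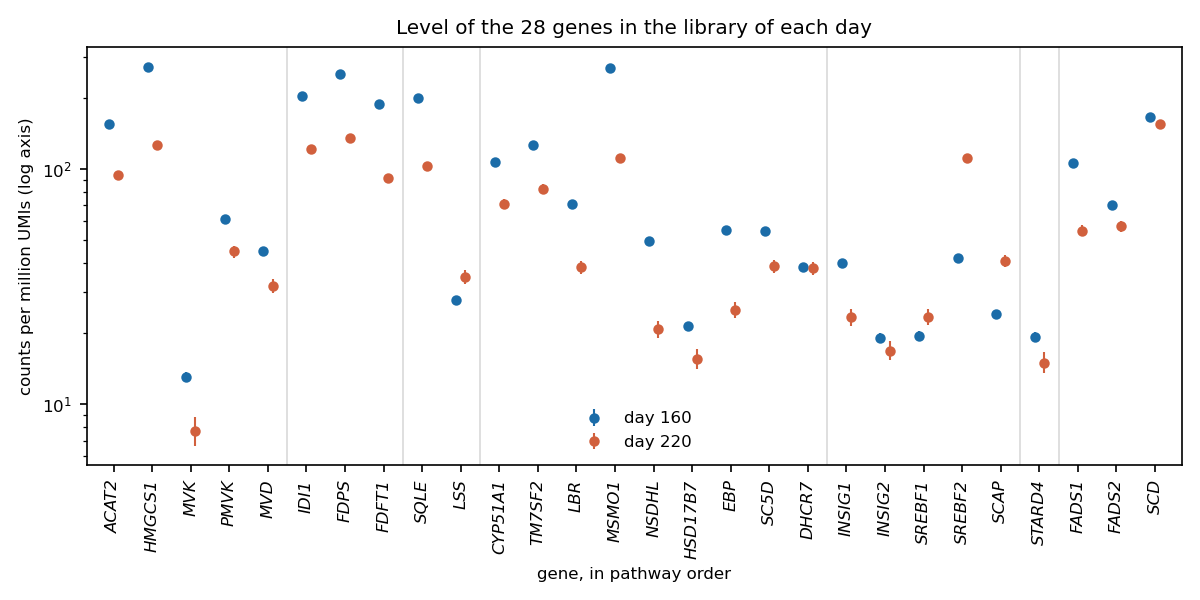
Level of each of the 28 genes, in pathway order, in the day 160 library (blue) and the day 220 library (orange), in CPM on a log axis with 95% Poisson intervals; grey lines separate the steps. The blue points lie above the orange ones for 18 of the 19 enzymes, while SREBF2 (42.0 and 111 CPM) and SCAP (24.2 and 40.7 CPM) have the opposite order.

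The mevalonate pathway opens with ACAT2, the cytosolic thiolase that joins acetyl-CoA units (ENSG00000120437, chromosome 6, 159760328 to 159779055 on GRCh38, GENCODE release 29). ACAT2 stood at 156 CPM on day 160 (154 to 158) and 94.7 CPM on day 220 (90.9 to 98.5), or 1.65-fold lower (1.58 to 1.72). Its annotated end overlaps that of TCP1 on the other strand by 558 bases, and the use of strand in counting is not given. HMGCS1 (ENSG00000112972, chromosome 5, 43289395 to 43313512), the HMG-CoA synthase of the next reaction, stood at 271 CPM on day 160 (268 to 275) and 127 CPM on day 220 (123 to 131), or 2.14-fold lower (2.06 to 2.22). That was the highest level of the 19 enzymes at day 160. The 3 later genes, the kinases MVK and PMVK and the decarboxylase MVD, had log2 ratios of -0.70, -0.44 and -0.48. MVK, the least abundant member, had 13.1 and 7.69 CPM. So all 5 genes of this step lay below 0, and the step fell short of the 2-fold mark except at HMGCS1. Its sum was 547 CPM at day 160 and 306 CPM at day 220, 1.79-fold lower (1.75 to 1.83).

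Isoprene units are interconverted by IDI1, lengthened to farnesyl diphosphate by FDPS, and coupled head to head to squalene by FDFT1. IDI1 (ENSG00000067064, chromosome 10, 1039152 to 1049170) stood at 205 CPM on day 160 (202 to 207) and 122 CPM on day 220 (118 to 127), or 1.68-fold lower (1.61 to 1.74). FDPS (ENSG00000160752, chromosome 1, 155308748 to 155320666), the most abundant gene of the step, stood at 253 CPM on day 160 (251 to 256) and 136 CPM on day 220 (131 to 140.2), or 1.87-fold lower (1.80 to 1.94). FDFT1, the branch point to sterols, had 189 and 91.4 CPM, or 2.07-fold lower (1.99 to 2.16), the lowest ratio of the 3. Its log2 ratio of -1.04 was -1.17 against genes of like intron length. FDPS and other members with near-identical pseudogene copies, such as HSD17B7, are uncertain to the extent that counting split reads between copies.

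The 2 genes that turn squalene to lanosterol had ratios of opposite sign. SQLE (ENSG00000104549, chromosome 8, 124998497 to 125022283), the squalene epoxidase that adds the first oxygen, stood at 200.8 CPM on day 160 (198 to 203) and 103 CPM on day 220 (99.1 to 107), or 1.95-fold lower (1.87 to 2.03). LSS (ENSG00000160285, chromosome 21, 46188141 to 46228824), the cyclase that closes the rings, stood at 27.6 CPM on day 160 (26.7 to 28.6) and 34.7 CPM on day 220 (32.5 to 37.1), or 1.26-fold higher (1.17 to 1.36). LSS was the only enzyme above 0, with a log2 ratio of 0.32 as measured and 0.28 against genes of like intron length, and it stayed short of the 1.5-fold mark.

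Lanosterol is converted to cholesterol by 9 of the genes. CYP51A1 (ENSG00000001630, chromosome 7, 92112151 to 92134803), the demethylase that acts first, stood at 107 CPM on day 160 (106 to 109) and 71.1 CPM on day 220 (67.8 to 74.4), or 1.51-fold lower (1.44 to 1.59). The sterol C14 reductases TM7SF2 and LBR, the second of which is also a protein of the inner nuclear membrane, had log2 ratios of -0.61 and -0.87. MSMO1 (ENSG00000052802, chromosome 4, 165327623 to 165343160), the C4 methyl oxidase, was the most abundant gene of this step and had the lowest ratio of all 28, at 269.8 CPM on day 160 (267 to 273) and 112 CPM on day 220 (108 to 116), or 2.41-fold lower (2.32 to 2.51). NSDHL (ENSG00000147383, chromosome X, 152830967 to 152869729), which acts with MSMO1 in the removal of the C4 methyl groups, stood at 49.5 CPM on day 160 (48.2 to 50.8) and 20.8 CPM on day 220 (19.1 to 22.7), or 2.37-fold lower (2.17 to 2.60). HSD17B7, the third enzyme of that demethylation, was less far below, at -0.44. EBP (ENSG00000147155, chromosome X, 48521158 to 48528716), the isomerase that follows, stood at 55.0 CPM on day 160 (53.6 to 56.3) and 25.1 CPM on day 220 (23.2 to 27.1), or 2.19-fold lower (2.02 to 2.38). Of the last steps, SC5D, the C5 desaturase, had -0.49, and DHCR7, a late reductase, was the enzyme nearest to 0, at -0.022, with 38.4 CPM at day 160 and 37.8 CPM at day 220. The 9 genes together fell short of 2-fold, at 793 and 441 CPM, 1.80-fold lower (1.76 to 1.83), so the sums of the mevalonate, squalene-forming and lanosterol steps differed by similar factors, and the squalene to lanosterol step by 1.66-fold (1.60 to 1.72).

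The regulators were split in direction. SREBF2 (ENSG00000198911, chromosome 22, 41833079 to 41907308), which encodes the transcription factor that drives the pathway, stood at 42.0 CPM on day 160 (40.8 to 43.2) and 111 CPM on day 220 (107 to 115), or 2.65-fold higher (2.53 to 2.77), the highest ratio of the 28 at a log2 of 1.38, and 0.84 against genes of like intron length. SCAP (ENSG00000114650, chromosome 3, 47413694 to 47477126), the sterol-sensing escort, stood at 24.2 CPM on day 160 (23.3 to 25.1) and 40.7 CPM on day 220 (38.3 to 43.3), or 1.68-fold higher (1.56 to 1.81), with 0.43 after centring, under the 1.5-fold mark. SREBF1 (ENSG00000072310, chromosome 17, 17810399 to 17837002), whose product favours fatty acid genes, stood at 19.6 CPM on day 160 (18.8 to 20.4) and 23.5 CPM on day 220 (21.6 to 25.4), or 1.20-fold higher (1.09 to 1.31). INSIG1 (ENSG00000186480, chromosome 7, 155297776 to 155310235), the anchor whose own gene is a target of SREBP, went with the enzymes instead, at 39.8 CPM on day 160 (38.7 to 41.0) and 23.4 CPM on day 220 (21.5 to 25.3), or 1.70-fold lower (1.56 to 1.86). INSIG2 (ENSG00000125629, chromosome 2, 118088452 to 118110997), the anchor known to be regulated otherwise, stood at 19.2 CPM on day 160 (18.4 to 19.999) and 16.9 CPM on day 220 (15.4 to 18.6), or 1.13-fold lower (1.02 to 1.26). Of the 5 regulators, 3 were therefore above 0 and both INSIG genes below. By log2 ratio SREBF1 stood above 54.6% of all counted genes, SCAP above 70.6% and SREBF2 above 82.9%. INSIG2 stood above 34.8% and INSIG1 above 9.67%. A ratio above 0 was thus common among all genes, and the count above 0 is no result about the regulators.

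STARD4 (ENSG00000164211, chromosome 5, 111496033 to 111512590), which carries cholesterol between membranes, stood at 19.4 CPM on day 160 (18.6 to 20.2) and 15.03 CPM on day 220 (13.6 to 16.6), or 1.29-fold lower (1.16 to 1.44). Of the desaturases, FADS1 (ENSG00000149485, chromosome 11, 61799625 to 61829318), the delta-5 desaturase of long polyunsaturated fatty acids, stood at 106 CPM on day 160 (104 to 108) and 54.8 CPM on day 220 (51.9 to 57.7), or 1.94-fold lower (1.83 to 2.05). FADS2, the delta-6 desaturase beside it, had 70.2 and 57.1 CPM, with log2 ratios of -0.29 as measured and -0.83 after centring on intron length. The 2 loci overlap on opposite strands by 29694 bases, the whole annotated span of FADS1, so reads of 1 could be counted to the other. FADS2 also overlaps FEN1 on the same strand by 4265 bases. FEN1 had 35.6 CPM at day 160 and 13.8 CPM at day 220. SCD (ENSG00000099194, chromosome 10, 100347124 to 100364834), which makes monounsaturated fatty acids, stood at 166 CPM on day 160 (163 to 168) and 156 CPM on day 220 (151 to 161), or 1.06-fold lower (1.03 to 1.10), the smallest difference among the desaturases as measured. In all, 8 of the 28 genes overlapped another counted gene.

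The difference between days was of unlike size in the 2 classes of cells compared. Clusters were made without the 28 genes and named from marker lists. Day 160 had 1 astrocyte-like cluster of 2240 cells, led by HLA class II genes such as HLA-DPA1 and by SERPINA3, and day 220 had 1 of 124 cells, led by SPARCL1, EDNRB and HLA-DPA1. In these cells the 19 enzymes summed to 3440 CPM on day 160 (3422 to 3459) and 1278 CPM on day 220 (1253 to 1303), or 2.69-fold lower. The neuronal-lineage-like class held 3250 cells in 4 clusters led by CALB2, CRABP1, SST and PPP1R14C at day 160 and 240 cells in 3 clusters led by PEG10, GLCCI1 and BRINP1 at day 220. There the enzymes summed to 856 CPM (844 to 868) and 905 CPM (885 to 926), a ratio of 0.946 of day 160 over day 220, which lay between 0.909 and 1.23 under the other settings tried. Over 4 clusters with 21.5% of the day 160 cells no name was given, by limits set after the clusters were seen, and every cluster of day 220 was named. The PEG10-led (136 cells) and GLCCI1-led (64 cells) clusters of day 220 had mean log2 folds of markers of 0.71 and 0.75, near the limit of 0.7. The BRINP1-led one had 1.32, and the neuronal-lineage-like clusters of day 160 had 1.33 to 1.60. The NMU-led cluster of day 160 (415 cells), nearest to the same class at 0.73, was left unnamed by its leading genes. What this gives to the difference between classes was not tested.

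Within astrocyte-like cells all 19 enzymes lay below 0 and 17 were 1.5-fold lower. Of the 28 genes 21 were 1.5-fold lower and 2, SREBF2 and SCAP, higher, against 14.4% and 33.3% of all 9845 genes counted there. The share of all genes below 0 in these cells was not counted. NSDHL had 81.7 CPM at day 160 and 18.7 CPM at day 220, 4.36-fold lower (3.69 to 5.19). MSMO1 had 529 and 130.0 CPM, 4.07-fold lower (3.82 to 4.34), and HMGCS1 had 516 and 184 CPM, 2.80-fold lower (2.66 to 2.96). These 3 lay further apart here than in the whole libraries. The 2 enzymes short of 1.5-fold were PMVK, 1.49-fold lower (1.35 to 1.66), and LSS, 1.22-fold lower (1.07 to 1.39). INSIG1 was 2.74-fold lower (2.36 to 3.19), while SREBF2 had 56.4 and 98.0 CPM, 1.74-fold higher (1.60 to 1.89), and SCD was 1.40-fold lower (1.33 to 1.47). After centring on intron length 20 of the 28 were 1.5-fold lower and none higher, against 16.3% and 19.3% of genes, and SREBF2 was at 0.23.

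Within neuronal-lineage-like cells 27 of the 28 genes reached 10 CPM, of which 2 were 1.5-fold lower and 9 higher, against 13.1% and 37.4% of all 9862 genes counted there, and their median log2 ratio was 0.29. SREBF2 had 25.9 CPM at day 160 and 107 CPM at day 220, 4.14-fold higher (3.73 to 4.59). Its log2 ratio of 2.01 was 1.29 after centring on intron length, and after centring 2 of the 27 genes were 1.5-fold lower and 10 higher, against 17.8% and 21.6% of genes. STARD4 rested on 71 UMIs at day 160, at 3.00 CPM, and had 11.3 CPM at day 220. The enzymes above 1.5-fold were LSS, 2.75-fold higher (2.32 to 3.24), DHCR7, 2.24-fold higher (1.82 to 2.75), and CYP51A1, 2.01-fold higher (1.76 to 2.29). The 2 genes below were LBR, 1.52-fold lower (1.36 to 1.70), and FADS1, 1.70-fold lower (1.52 to 1.89). HMGCS1 had 47.2 and 71.0 CPM and MSMO1 51.6 and 74.5 CPM, so these genes, far lower among astrocyte-like cells at day 220, had higher values there among neuronal-lineage-like cells. In each of the 28 genes the neuronal-lineage-like ratio lay above the astrocyte-like one, by 0.14 to 2.65 on the log2 scale. Over the 27 counted in both classes the median difference was 1.39, where 55.6% of all 9164 genes counted in both had the higher ratio in neuronal-lineage-like cells and their median difference was 0.058. Among the 27, 4 were 1.5-fold lower in astrocyte-like and 1.5-fold higher in neuronal-lineage-like cells, against 0.895% of the 9164. This difference between the classes was not tested. Without the astrocyte-like cells, 5 of the 28 genes were 1.5-fold lower and 4 higher, against 1523 and 3505 of all 10174 genes counted. The share that was lower was thus near that of all genes, while the share that was higher lay below it. The enzyme sum was 1.29-fold lower at day 220 without these cells. Markers differed within the classes too: the neuron list summed to 5111 CPM among neuronal-lineage-like cells at day 160 and 1854 CPM at day 220, with 12 and 9 of its 13 genes at 10 CPM. In the same cells the neuronal precursor list summed to 8118 and 3821 CPM and the astrocyte list to 1129 and 1852 CPM, so the astrocyte and neuron lists were level at day 220. Among astrocyte-like cells the astrocyte list summed to 7012 and 6109 CPM, with 11 and 9 of its 14 genes at 10 CPM, and the neuron list to 1054 and 799.9 CPM. Their part in the result was not tested.

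**Figure D2:**
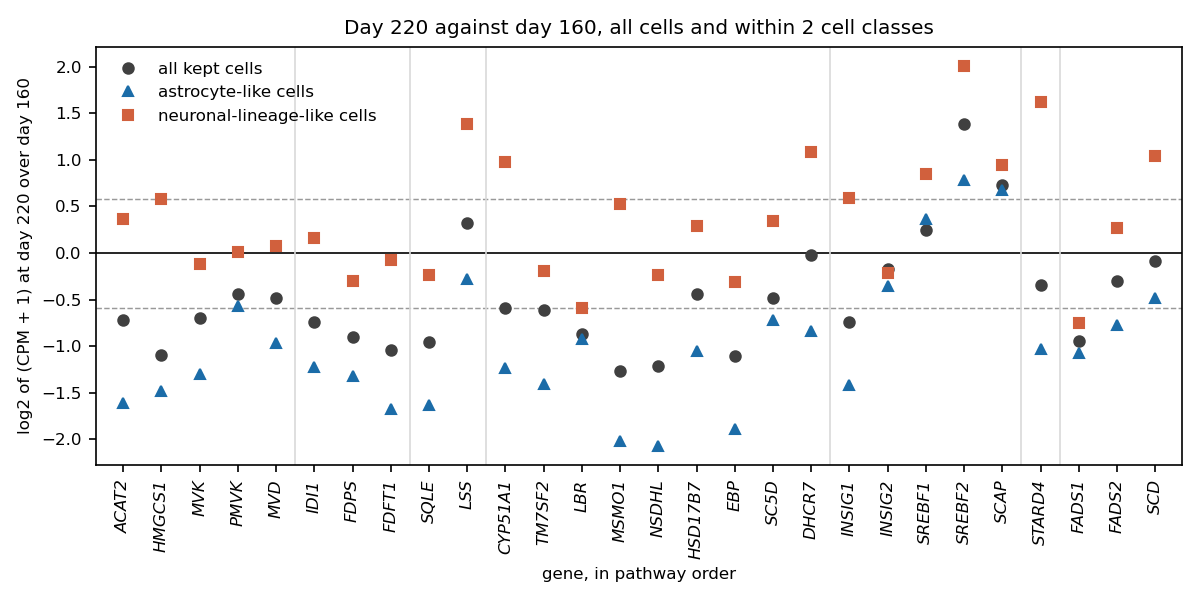
Log2 ratio of (CPM + 1) at day 220 over day 160 for each gene in all kept cells (grey circles), astrocyte-like cells (blue triangles) and neuronal-lineage-like cells (orange squares); dashed lines mark 1.5-fold. Every orange square lies above its blue triangle, and SREBF2 lies above 0 in all 3 (1.38, 0.79 and 2.01).

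At day 160 astrocyte-like cells led the pathway, at 4.02-fold the enzyme sum of neuronal-lineage-like cells. There 18 of 19 enzymes were 1.5-fold higher, against 22.5% of all 9037 genes counted. HMGCS1 was at 10.9-fold (10.3 to 11.6), MSMO1 at 10.2-fold (9.67 to 10.9), CYP51A1 at 8.33-fold (7.64 to 9.10) and DHCR7 at 7.18-fold (6.25 to 8.29) the level of neuronal-lineage-like cells, and outside the enzymes STARD4 was at 10.6-fold (8.35 to 13.7) and SCD at 9.43-fold (8.78 to 10.1). LBR was the enzyme with the opposite order, at 0.562-fold (0.524 to 0.603), and INSIG2 was at 0.916-fold (0.818 to 1.03). SREBF2 itself was at 2.17-fold (1.99 to 2.38), a smaller factor than that of HMGCS1 or MSMO1. At day 220 the enzyme sums differed by 1.41-fold, and 7 of 18 counted enzymes were 1.5-fold higher and 2, LBR and EBP, lower, against 13.1% and 13.8% of 10009 genes. SCD at 3.23-fold (2.94 to 3.55), HMGCS1 at 2.59-fold (2.36 to 2.86) and SC5D at 2.28-fold (1.93 to 2.71) were then the furthest above, and SREBF2 was at 0.913-fold (0.828 to 1.01).

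Over the 11 of 13 day 160 clusters that held at least 100 cells, 22 of the 28 genes had their highest level in the astrocyte-like cluster. How many of all genes were highest in each cluster was not counted. The counts here, for both days, therefore have no background and only describe where these genes were highest. Over all 13 clusters it was 16: an unnamed GOLGA8B-led cluster of 14 cells was then highest for 8 genes, each on 2 to 8 UMIs, among them STARD4 at 189 CPM (81.6 to 373) on 8 UMIs. Among the larger clusters LBR and SREBF1 were highest in the UBE2C-led cycling-like cluster, where LBR had 213 CPM against 38.2 CPM in the RAMP1-led cluster. FDPS and FADS1 were highest in the PCLAF-led cycling-like cluster, EBP in the COL1A1-led contractile mesenchymal-like cluster and INSIG2 in the CALB2-led one. Over these 11 the spread was widest for HMGCS1, from 40.1 to 516 CPM, and narrowest for INSIG2, from 14.5 to 22.8 CPM. Enzyme sums were next highest in clusters without a name, led by RAMP1 (2293 CPM) and DHRS3 (2162 CPM), and in contractile mesenchymal-like cells (1994 CPM, 120 cells), with 1666 CPM in cycling-like cells. At day 220 no cluster led in most genes: the COL1A1-led cluster was highest for 8, the BRINP1-led and TOP2A-led for 6 each, and the OLIG1-led and SPARCL1-led for 4 each. The highest enzyme sums there were 1578 CPM in contractile mesenchymal-like cells (45 cells) and 1503 CPM in oligodendrocyte-lineage-like cells (76 cells), a class with no named cluster at day 160, with 1280 CPM in 33 cycling-like cells. The DHRS3-led cluster of day 160 (1182 cells) had the oligodendrocyte lineage list as its nearest, with 3 of 10 markers detected and a mean log2 fold of 0.59, under the limit of 0.7.

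**Figure D3:**
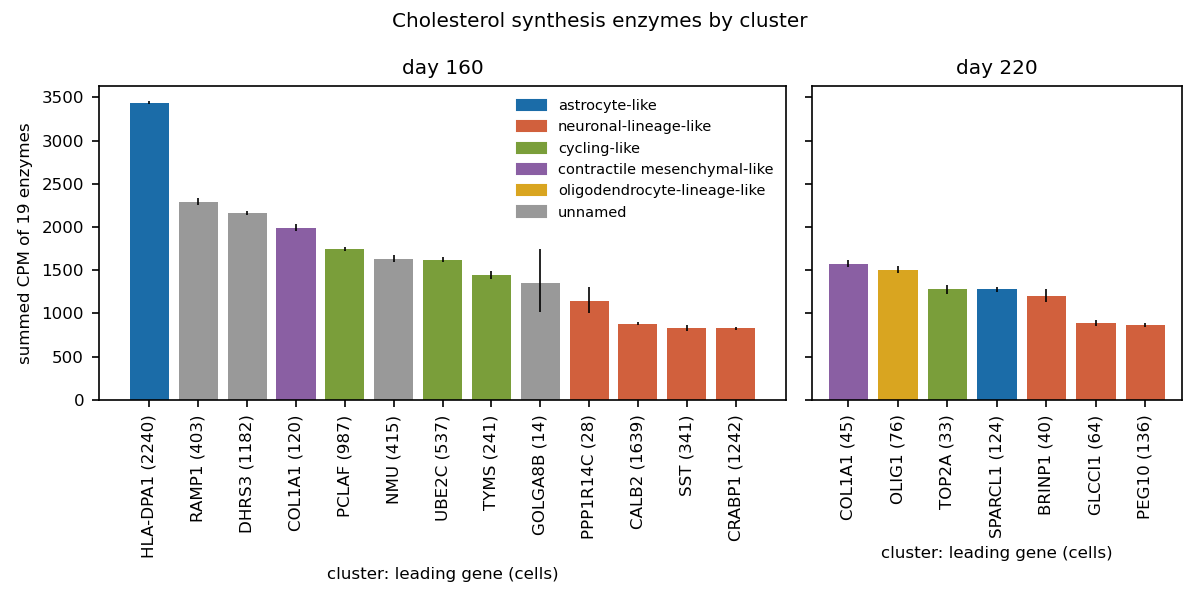
Summed CPM of the 19 enzymes in each cluster, with 95% Poisson intervals, for day 160 (left) and day 220 (right); bars are named by leading gene and number of cells and coloured by class. The astrocyte-like bar stands highest at day 160 (3440 CPM) and at day 220 is level with the TOP2A-led bar (1278 and 1280 CPM), below 2 others.

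Between single cells the pathway varied widely. With each cell thinned to 5000 UMIs, which left out 690 cells at day 160 and 30 at day 220, the 19 enzymes had a median of 7 UMIs per cell (mean 10.2, highest 78) at day 160 and 4 (mean 6.05, highest 56) at day 220. Cells with 20 or more were 14.3% at day 160 and 4.92% at day 220. Astrocyte-like cells had medians of 17 and 4 UMIs, and neuronal-lineage-like cells 4 and 3. The medians thus lay far apart at day 160 and within 1 UMI of each other at day 220. The classes still differed at day 220 in their upper tails. Means there were 6.62 UMIs in astrocyte-like and 4.74 in neuronal-lineage-like cells, with 9.09% and 2.74% of cells at 20 or more.

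**Figure D4:**
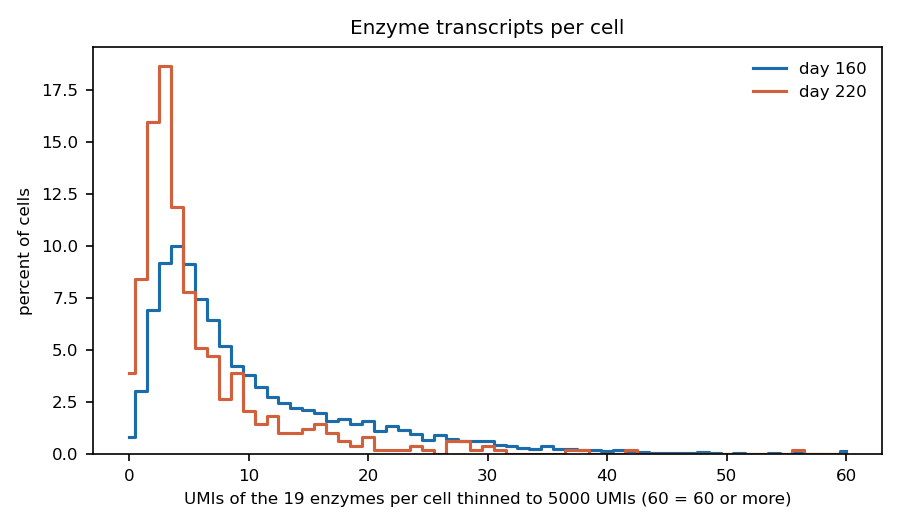
Percent of cells by number of enzyme UMIs per cell after thinning to 5000 UMIs, in day 160 (blue, 8699 cells) and day 220 (orange, 488 cells). The day 160 line runs further to the right, with 14.3% of cells at 20 or more against 4.92%.

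Shares of cells with a UMI showed the same order once depth was matched. Thinned to 5000 UMIs, 23 of the 28 genes had a smaller share of cells at day 220, against 43.5% of all 10167 counted genes, while without thinning all 28 had a larger one, the day 220 cells being deeper. HMGCS1 was seen in 47.2% of cells at day 160 and 34.4% at day 220 after thinning, and in 59.1% and 78.8% before it. For astrocyte-like cells alone these thinned shares were 84.0% and 38.8%, and for neuronal-lineage-like cells 19.2% and 22.8%. SREBF2 went the other way, at 17.2% and 43.4% of all thinned cells. No cell type here is known to lack these genes, so the share that free RNA gives was not measured.

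The enzymes varied together from cell to cell. The square root of each gene's UMIs was correlated with that of the summed UMIs of the other enzymes across cells thinned to 5000 UMIs, so cells share their library and depth and the values are descriptions. The median Pearson r of the 19 enzymes was 0.35 over 8699 cells at day 160 and 0.33 over 488 cells at day 220, against a median near 0 and a 95th percentile of 0.159 and 0.110 over all other genes. In each library 16 enzymes lay above that percentile. HMGCS1 (0.67 and 0.57) and MSMO1 (0.66 and 0.55) were highest at day 160, and ACAT2 was at 0.47 and 0.56. LBR (-0.092 and 0.077) and PMVK (0.091 and 0.022) stood apart. Taken as deviations from each cell's cluster mean the enzyme medians were 0.26 and 0.31, against a 95th percentile of 0.048 and 0.103 over all other genes.

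Outside the enzymes, SCD (0.53 and 0.37), INSIG1 (0.32 and 0.35), STARD4 (0.24 and 0.31) and FADS2 (0.26 and 0.32) varied with the enzymes. SREBF2 had 0.16 and 0.23. SREBF1, SCAP and INSIG2 were near 0 in both, at 0.087, 0.036 and -0.014 at day 160. The INSIG pair thus differed in this measure too, INSIG1 being with the enzymes and INSIG2 not. Of the genes that are not members, those with the highest smaller r of the 2 libraries, among 7912 genes, included FGFBP3 (0.43), FABP7 (0.43), DBI (0.33), GFAP (0.28), CNN3 (0.27), LGALS1 (0.25), IGFBP2 (0.25) and VIM (0.24). GFAP, FABP7 and VIM are genes of glia, and DBI encodes a binder of acyl-CoA. Taken as deviations from cluster means, r at day 160 was 0.34 for FABP7, 0.31 for DBI, 0.22 for GFAP and 0.21 for FGFBP3. It was 0.16 for CNN3, 0.12 for VIM, 0.049 for LGALS1 and 0.019 for IGFBP2. Across all cells at day 160, r was 0.64 for FABP7, 0.58 for DBI, 0.57 for GFAP and 0.43 for FGFBP3. It was 0.48 for CNN3, 0.56 for VIM, 0.25 for LGALS1 and 0.25 for IGFBP2. Part of the day 160 value of each thus lay between clusters, in proportion most for VIM, LGALS1 and IGFBP2. At day 220 the r of deviations from cluster means ran from 0.19 for IGFBP2 to 0.44 for FABP7.

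**Figure D5:**
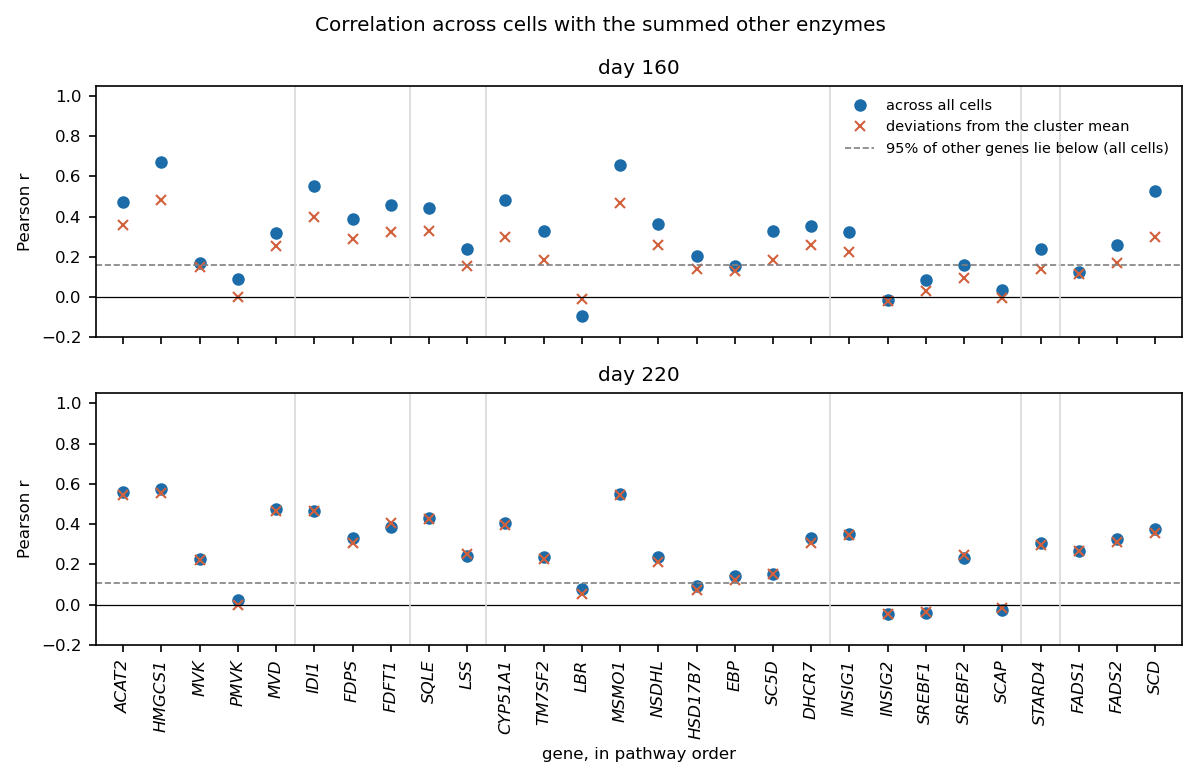
Pearson r, across cells thinned to 5000 UMIs, of each gene with the summed other enzymes at day 160 (top) and day 220 (bottom), across all cells (blue circles) and as deviations from cluster means (orange crosses). The dashed line is the 95th percentile of other genes across all cells, 0.159 and 0.110, and applies to the circles only. For the crosses that percentile, not drawn, was 0.048 and 0.103. Across all cells LBR lies at -0.092 and 0.077, while HMGCS1 lies at 0.67 and 0.57.

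Neighbouring pathways had ratios in both directions. Among 6 counted genes of sterol export and targets of the liver X receptors, which sense surplus sterol, 4 were 1.5-fold higher and none lower. For these lists, as for the 28 genes, the background over all counted genes was 33.4% higher and 14.4% lower, and counts of a few genes near those shares are no result about a list. APOE, the main apolipoprotein of astrocytes, had 25.2 CPM at day 160 and 197 CPM at day 220 (log2 ratio 2.92), and NR1H2, a liver X receptor, was lowest at -0.26. Of 11 genes of the mevalonate branch that leads away from sterols, 3 were 1.5-fold lower and 3 higher, from RABGGTA at -0.81 to PDSS2, of ubiquinone synthesis, at 2.50. Of 7 counted genes of SREBP cleavage and of sterol-dependent degradation, 1 was lower and 3 higher, from RNF139 at -0.60 to RNF145 at 1.09. Of 13 counted genes of fatty acid synthesis and elongation, 1 was lower and 6 higher, from the citrate carrier SLC25A1 at -0.85 to ACACA, of the first step of fatty acid synthesis, at 2.54. Of 11 counted genes of sterol transport, storage and oxidation, 1 was lower and 3 higher: TMEM97, whose product binds the transporter NPC1, was lowest at -1.16, and the oxysterol hydroxylase CYP7B1 highest at 1.99. After centring on intron length APOE was at 3.41, while PDSS2 and ACACA, with long introns, were at 0.38 and 0.38.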

How the data were processed

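Per the file headers, the authors made the deposited counts with Cell Ranger 7.0.1, and these are whole UMI counts without normalization. The build hg38, Cell Ranger 7 and Seurat 4 are named in the submitters' processing notes. The use of introns, strand, annotation and barcode filters is not given.

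Barcodes with 1000 or more genes and at most 15% mitochondrial UMIs passed (9972 of 13018 at day 160, 524 of 676 at day 220), and 583 and 6 that Scrublet marked as doublets (scanpy 1.11.5, expected rate 0.06) were left out. The libraries shared 3 barcodes. Counts were summed over cells and scaled to CPM. Log2 ratios, and the counts of genes past 1.5-fold or 2-fold made from them, used a pseudocount of 1 CPM. Printed folds and their intervals did not. Genes with 10 CPM in at least 1 library were counted. A count of 0 allows up to 3 UMIs, or 0.0261 CPM at day 160 and 0.118 CPM at day 220. CPM values carry exact Poisson intervals and ratios exact conditional binomial ones. With 1 library per day no p-value was computed.

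Libraries were clustered separately without the 28 genes (2000 variable genes, 30 components, 15 neighbours, Leiden resolution 0.5). Classes were named where at least 3 markers were detected at a mean log2 fold of 0.7 and the leading genes did not go against the name. Intron lengths came from GENCODE release 29, and promoters from RefSeq. Full values were given to the lowest and highest 3 ratios, the first and the most abundant gene of each step and the 5 regulators. Outside the members, the lowest and highest gene of each list and the 10 genes nearest in co-variation were chosen, some of which are not reported here. Genes named outside this rule, and the promoters printed, were chosen after their values were seen. The members and lists were chosen with earlier results of these data known. The method was tested on simulated data.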

Additional observations from a re-analysis of the deposited data

Results flagged for a closer look

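Of the 27 genes counted in both classes, 4 lay at least 1.5-fold apart between the days in opposite directions in the 2 classes of cells, lower at day 220 among astrocyte-like cells and higher among neuronal-lineage-like cells, against 0.895% of all 9164 genes counted in both. After centring on intron length they were 6 of the 27, against 1.15% of genes. The difference between the classes was not tested, since each day had 1 library, and markers of both classes also moved between the days, as given above. STARD4, the sterol carrier, was 2.11-fold lower (1.74 to 2.57) in the first class and 3.78-fold higher (2.75 to 5.21) in the second. Its log2 ratios, with the pseudocount of 1 CPM, were -1.03 and 1.62, a difference of 2.65. All differences given here are of such log2 ratios, while the folds are without the pseudocount. CYP51A1, the first enzyme after lanosterol, was 2.37-fold lower (2.18 to 2.57) and 2.01-fold higher (1.76 to 2.29), a difference of 2.21. INSIG1 was 2.74-fold lower (2.36 to 3.19) and 1.55-fold higher (1.25 to 1.92), a difference of 2.001. DHCR7, a late reductase, was 1.81-fold lower (1.60 to 2.05) and 2.24-fold higher (1.82 to 2.75), a difference of 1.92, while its whole-library levels were almost equal.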

How the results depend on the processing

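Across the alternatives run for the comparison of the whole libraries, astrocyte-like cells alone included, the median of the members stayed below 0 and the enzyme sum stayed lower at day 220. Neuronal-lineage-like cells alone, which were not among them, had a median of 0.29 and an enzyme sum of 856 CPM at day 160 and 905 CPM at day 220. Centred on genes of like intron length, 9 of the 28 were 1.5-fold lower and 1 higher, against 15 and 2 as measured. Among cells with 20000 to 60000 UMIs, 23 were lower and the median was -1.05, but astrocyte-like cells were 47.0% of those cells at day 160 and 12.5% at day 220. In astrocyte-like cells the median was -1.06. Without them, an alternative added after the data were seen, 5 were lower, 4 higher and the median was -0.16, and CYP51A1 and TM7SF2 turned to 0.11 and 0.025. With a pseudocount of 10 CPM, and with a limit of 50 CPM, 1 was higher.

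The enzyme sum was 1.59-fold lower with a mitochondrial limit of 10%, 1.82 with at least 2000 genes, 1.93 without mitochondrial and ribosomal protein genes, 1.70 as a mean over cells, 1.68 thinned to 5000 UMIs, 2.35 at 20000 to 60000 UMIs, 1.92 without cycling-like clusters, 2.69 in astrocyte-like cells and 1.29 without them.

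At resolution 1.0, with clusters made with the members, thinned to 5000 UMIs, at 20000 to 60000 UMIs and as a mean over cells, the astrocyte-like fold was 2.96, 3.07, 2.86, 2.99 and 3.08. The last 3 of these settings were added after the data were seen. The neuronal-lineage-like fold of day 160 over day 220 was 1.04 at resolution 0.3, 1.23 at resolution 1.0, 0.973 with the members, 0.909 thinned and 0.999 at 20000 to 60000 UMIs, so its direction was not settled. Astrocyte-like over neuronal-lineage-like cells at day 160 was 3.64 at resolution 0.3, 4.50 with the members, 4.40 thinned, 3.35 at 20000 to 60000 UMIs and 4.41 as a mean over cells. At day 220 it was 1.65 at resolution 1.0, 1.12 at 20000 to 60000 UMIs and 1.34 as a mean over cells. The median r was 0.21 at 2000 UMIs and 0.48 at 10000 UMIs for day 160, and 0.20 and 0.43 for day 220. Without thinning, 0 of the 28 genes had a lower share at day 220. Over 17 alternatives 465 single-gene values gave 2 changes of sign in a gene past 1.5-fold. A further 213 of these values lay outside the counting interval of the gene's main ratio. Genes short of 1.5-fold, among them LSS, DHCR7 and SCD, also changed sign under some alternatives and are not in the count of 2. The cause of these movements was not tested. No paired analysis was possible because each day had 1 library.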
